A study of Mus musculus with 8 samples.

Results

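The genes described here are the insulin-like growth factor (IGF) binding proteins Igfbp2, Igfbp3, Igfbp4, Igfbp5, Igfbp6 and Igfbp7, the receptors Igf1r, Igf2r and Insr, and the adaptor Irs1. The rule names them by gene symbol and uses no measured value, though the set was proposed with earlier results of these data known. They make up 10 of the 18631 genes in the files. Of these, 6 averaged 1 FPKM or more across the 8 libraries and were among the 10731 genes tested: Igfbp2, Igfbp7, Igf1r, Igf2r, Insr and Irs1. FPKM scales the fragments of a gene by its length and by library depth, so levels can be set side by side between genes.

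The study concerns polycystic kidney disease, and sequenced poly(A) RNA from a pair of mouse kidney epithelial cell lines that differ in Pkd1, the gene for polycystin-1. The 4 groups of 2 libraries each were Pkd1-/- null cells, line null(PN), with THZ1, null cells with DMSO, Pkd1+/- heterozygous cells, line pkd1(PH), with THZ1, and heterozygous cells with DMSO. THZ1, a covalent inhibitor of the transcription kinase CDK7, was given at 50 nM for 6 h, and DMSO is its solvent. Every group was grown in DMEM-F12 with 3% fetal bovine serum, an insulin, transferrin and selenium supplement, interferon γ and T3, so all cells had insulin and serum in the medium. Each genotype is 1 line, so a difference between genotypes cannot be told apart from any other difference between the 2 lines. Whether the replicates were separate cultures is not stated in the labels, so the spread behind the p-values may be technical only.

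IGF1, IGF2 and insulin act through the receptor tyrosine kinases encoded by Igf1r and Insr, which phosphorylate adaptors such as Irs1 and Irs2 and so switch on PI3K, AKT and the RAS pathway. Igf2r encodes the cation-independent mannose 6-phosphate receptor, which has no kinase, takes up IGF2 for degradation and carries lysosomal enzymes. The IGF binding proteins hold IGFs outside the cell and can either withhold or deliver them, while Igfbp7 encodes a secreted protein that binds IGFs weakly.

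Promoters are shown for 4 genes on which the levels below turn. Igfbp2 and Igfbp5 lie tail to tail on chromosome 1, 5590 bp apart with no gene between them, and had very different levels. Igfbp7 had the highest level of the 10 genes, and Igf2r was the most abundant receptor. The sequences are RefSeq's for GRCm38.p6, from 250 bases before to 50 after the first listed start, 5′ to 3′ on the gene's strand, at chr1:72824230-72824529 (plus strand, Igfbp2), chr1:72874816-72875115 (minus, Igfbp5), chr5:77407996-77408295 (minus, Igfbp7) and chr17:12769657-12769956 (minus, Igf2r). Capitals mark GGGCGG, the GC box recognised by factors of the SP family, on either strand.
Igfbp2 promoter: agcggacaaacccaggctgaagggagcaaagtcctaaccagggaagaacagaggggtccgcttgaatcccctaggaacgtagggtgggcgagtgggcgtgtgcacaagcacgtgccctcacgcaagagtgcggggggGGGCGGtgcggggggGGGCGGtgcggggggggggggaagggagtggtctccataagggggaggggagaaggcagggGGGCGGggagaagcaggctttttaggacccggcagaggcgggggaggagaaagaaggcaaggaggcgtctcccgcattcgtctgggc
Igfbp5 promoter: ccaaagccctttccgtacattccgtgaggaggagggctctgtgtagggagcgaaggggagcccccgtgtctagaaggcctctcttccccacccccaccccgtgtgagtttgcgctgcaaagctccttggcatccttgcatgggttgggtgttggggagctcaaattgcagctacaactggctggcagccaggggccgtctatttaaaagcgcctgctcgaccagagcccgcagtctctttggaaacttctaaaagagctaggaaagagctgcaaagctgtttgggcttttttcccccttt
Igfbp7 promoter: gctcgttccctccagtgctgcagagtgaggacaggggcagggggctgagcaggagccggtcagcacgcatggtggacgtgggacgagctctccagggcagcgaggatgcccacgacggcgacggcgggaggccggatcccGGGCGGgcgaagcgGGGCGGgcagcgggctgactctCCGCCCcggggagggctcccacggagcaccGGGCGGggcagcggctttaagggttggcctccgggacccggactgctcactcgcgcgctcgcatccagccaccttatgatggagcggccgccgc
Igf2r promoter: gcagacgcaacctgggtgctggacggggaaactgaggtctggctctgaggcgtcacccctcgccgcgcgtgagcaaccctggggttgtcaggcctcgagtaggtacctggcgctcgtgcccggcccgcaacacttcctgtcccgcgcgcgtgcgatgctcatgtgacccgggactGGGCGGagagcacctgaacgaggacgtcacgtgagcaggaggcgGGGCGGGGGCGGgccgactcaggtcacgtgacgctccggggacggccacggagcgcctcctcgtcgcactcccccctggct

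A promoter was listed for 9 of the 10 genes, all but Insr. The GC box was present in the promoters of all 5 tested genes with a listed promoter: 3 in Igfbp2, 4 in Igfbp7, 2 in Igf1r, 3 in Igf2r (1 pair of them adjoining) and 2 in Irs1. None of the 4 promoters of Igfbp3, Igfbp4, Igfbp5 and Igfbp6 held one. Those of Igfbp4 and Igfbp6 held the letters TATAAA on either strand, which none of the 5 did. In Igfbp6 the letters lay only on the opposite strand, as TTTATA. Of 32851 mouse promoters of this length 35.7% held the GC box and 13.6% held TATAAA, on either strand. Counted per gene at any listed start, the GC box was commoner in genes that passed the level filter, at 71.7% of 8689, than in genes under it, at 35.3% of 6073. The split among the 9 genes with a listed promoter, each scored at a single start, runs the same way as in all genes. The GC content was 67.0% in the Igfbp2 promoter, 56.3% in Igfbp5, 73.3% in Igfbp7 and 70.7% in Igf2r.

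The libraries were alike in depth, at an estimated 17.3 to 18.3 M (mega) fragments, and 14007 to 15439 genes had a value above 0. Pearson's r between replicates across genes was 0.9973 to 0.9983. Pkd1 had 1.22 and 1.21 FPKM in null cells with THZ1, 1.69 and 1.32 in null cells with DMSO, 3.71 and 4.20 in heterozygous cells with THZ1 and 4.58 and 5.30 in heterozygous cells with DMSO, so it was lower in the null line but not at 0. Of 10 epithelial markers, 6 had a mean of at least 1 FPKM, mostly keratins, while the epithelial surface genes Epcam and Cdh1 averaged at most 0.145 and 0.295 FPKM in any group. Of 7 markers of tubule segments 1 reached that mean, of 5 leukocyte markers 2 did, and all 6 endothelial markers were at or under 0.1 FPKM in every library.

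Among the binding proteins, Igfbp7 and Igfbp2 made up nearly all of the RNA. Igfbp7 was 90.6% and 90.5% of the summed FPKM of the 6 binding proteins in null cells with THZ1, 91.5% and 90.1% in null cells with DMSO, 99.4% in both libraries of heterozygous cells with THZ1, and 99.3% and 99.2% in heterozygous cells with DMSO. Igfbp2 took 8.43% to 9.8% in the null libraries and 0.49% to 0.763% in the heterozygous ones. The other 4 binding proteins together took at most 0.0934%.

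In null cells with DMSO the order of levels was Igfbp7, Igfbp2, Igf2r, Igf1r, Insr and Irs1, and in heterozygous cells with DMSO it was Igfbp7, Igf2r, Igf1r, Insr, Igfbp2 and Irs1. The libraries of neighbouring genes in either order did not overlap. Igfbp2 thus stood in the second place in the null line and in the fifth in the heterozygous line.

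**Figure D1:**
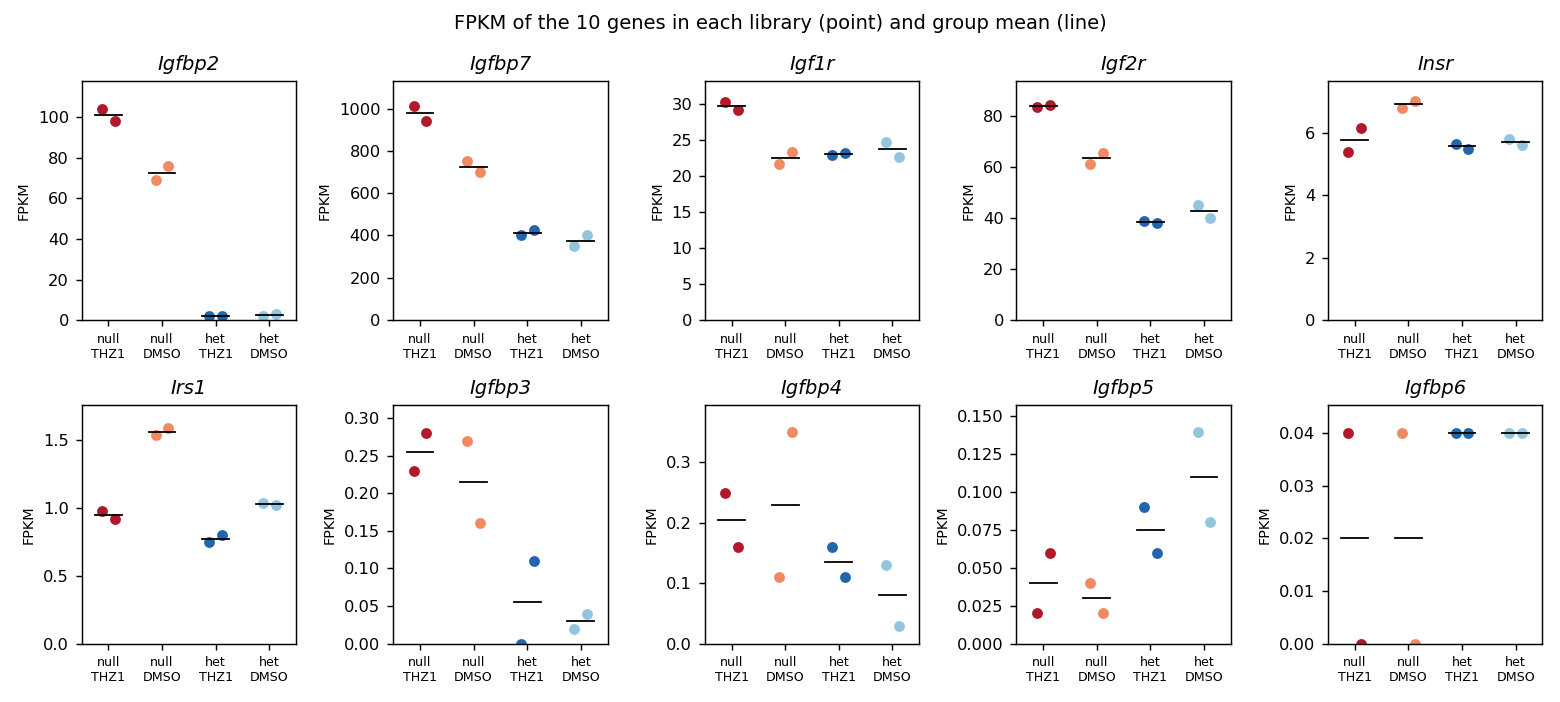
FPKM of the 10 genes in each library (points, 2 per group) with the group mean (line), for null cells with THZ1, null cells with DMSO, heterozygous (het) cells with THZ1 and heterozygous cells with DMSO; each panel has its own linear scale from 0. Igfbp2 lies at 69.18 to 104.14 FPKM in the null libraries and at 2.09 to 3.08 in the heterozygous ones, and Igfbp3, Igfbp4, Igfbp5 and Igfbp6 stay at or below 0.35.

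The first comparison asked how the null line differs from the heterozygous line without the drug. Igfbp2 was 27.8-fold higher in null cells by mean FPKM, Igfbp7 1.93-fold, Irs1 1.52-fold, Igf2r 1.49-fold and Insr 1.21-fold, while Igf1r did not pass the test. Of the 6 tested genes 5 rose and 0 fell, where 29.0% of all tested genes were called higher and 41.0% lower. The median log2 fold change was 0.45 over the 6 and -0.07 over all tested genes. Fold changes below are limma's on log2(FPKM + 1), with the standard error, and adjusted p-values are Benjamini-Hochberg values over all tested genes, called below 0.05.

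Igfbp2 (gene ID 16008, chromosome 1, 72824480 to 72852474 in GRCm38, as for the positions below) encodes a secreted binding protein with a preference for IGF2. It had 69.18 and 76.24 FPKM in null cells with DMSO, against 2.16 and 3.08 in heterozygous cells with DMSO. The groups lay far apart, and Igfbp2 had the third largest increase of all tested genes, 4.36 ± 0.10 (limma adjusted p = 2.28e-12). In bulk RNA a larger share of cells with a transcript and more RNA per cell cannot be told apart.

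Igfbp7 (gene ID 29817, chromosome 5, 77349240 to 77408045) encodes the angiomodulin protein of basement membranes and vessels. It had 750.66 and 701.14 FPKM in null cells with DMSO, against 350.69 and 400.19 in heterozygous cells with DMSO. Igfbp7 was within the 168 highest genes of every library, and both null libraries lay above both heterozygous ones, with a log2 fold change of 0.95 ± 0.06 (limma adjusted p = 3.1e-08). The annotation has it overlap Polr2b, on the other strand, by 89 bp, and Polr2b had 33.43 to 46.04 FPKM. A long noncoding RNA on the other strand, Gm34648, overlaps Igfbp7 by 7185 bp and has no value in these data.

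Some markers of other cell types differed between the lines in the same direction as these genes. The 5 smooth muscle markers summed to 231 and 231.7 FPKM in null cells with DMSO, against 30.28 to 31.36 in heterozygous cells with DMSO, a sum carried by Acta2 and Tagln. Cnn1 went the other way, at 2.455 FPKM in null cells with DMSO against 3.755 in heterozygous cells with DMSO, as did Des (0.06 against 0.1 FPKM in those groups), and Myh11 was at or under 0.1 in every library. The 9 mesenchyme markers summed to 33.73 and 33.75 FPKM in null cells with DMSO, against 15.55 to 16.67 in heterozygous cells with DMSO, a sum carried by Col1a1 and Postn. Pdgfrb averaged 0.81 FPKM in null cells with DMSO against 0.605 in heterozygous cells with DMSO, with Col3a1, Lum and Thy1 at or under 0.1 throughout. Markers of epithelium and tubule differed too. The 10 epithelial markers summed to 867.2 to 874.4 FPKM in null cells with DMSO, against 1009 to 1097 in heterozygous cells with DMSO. By group mean Krt8, Krt18 and Krt19 were lower in those null cells, while Krt7 and Cldn4 were higher. Lrp2 averaged 4.795 against 0.48 FPKM in those groups, and Umod 0 against 2.215. The part of any of these markers in the difference in Igfbp2 and Igfbp7 was not tested.

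Igf2r (gene ID 16004, chromosome 17, 12682406 to 12769706) had 61.08 and 65.57 FPKM in null cells with DMSO, against 45.11 and 40.06 in heterozygous cells with DMSO. The groups did not overlap, and the log2 fold change was 0.56 ± 0.06 (limma adjusted p = 1.42e-06). The antisense RNA Airn overlaps Igf2r over 28396 bp and is not analysed here; the handling of strand is not given in the sources used here, so fragments of Airn within Igf2r exons cannot be told apart from its own.

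Igf1r (gene ID 16001, chromosome 7, 67952257 to 68233668), the kinase receptor for IGF1 and IGF2, had 21.71 and 23.29 FPKM in null cells with DMSO, against 24.74 and 22.68 in heterozygous cells with DMSO. These groups overlapped, with a log2 fold change of -0.07 ± 0.06 (limma adjusted p = 0.269). The Igf2r to Igf1r ratio was therefore 2.81 and 2.82 in null cells with DMSO, against 1.82 and 1.77 in heterozygous cells with DMSO. The long noncoding RNAs Gm51487 (15813 bp) and Gm51488 (2319 bp) overlap Igf1r and have no value in these data. Fragments of theirs within Igf1r exons cannot be told apart from those of Igf1r.

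Insr (gene ID 16337, chromosome 8, 3150922 to 3279649), the insulin receptor, had 6.82 and 7.02 FPKM in null cells with DMSO, against 5.82 and 5.62 in heterozygous cells with DMSO. The groups did not overlap, and the log2 fold change was 0.24 ± 0.08 (limma adjusted p = 0.0135). The call was lost without null DMSO replicate 2 (adjusted p = 0.0728) and without heterozygous DMSO replicate 2 (adjusted p = 0.062), at 0.22 in both cases.

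Irs1 (gene ID 16367, chromosome 1, 82233105 to 82291439), which docks PI3K to both kinase receptors, had 1.54 and 1.59 FPKM in null cells with DMSO, against 1.04 and 1.02 in heterozygous cells with DMSO. The log2 fold change was 0.34 ± 0.09 (limma adjusted p = 0.00488) and, at these low levels, depended on the pseudocount: it was 0.56 (adjusted p = 0.00933) with 0.1 in place of 1.

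The 4 low binding proteins were not tested. Igfbp3 (gene ID 16009), the main IGF carrier in serum, had 0.23 and 0.28 FPKM in null cells with THZ1, 0.27 and 0.16 in null cells with DMSO, 0.00 and 0.11 in heterozygous cells with THZ1, and 0.02 and 0.04 in heterozygous cells with DMSO. All null libraries lay above all heterozygous ones, at values worth about 7 to 12 fragments in null libraries and up to 4.9 in heterozygous ones. Igfbp4 (gene ID 16010), an inhibitory binding protein, ranged from 0.03 to 0.35 FPKM with overlapping groups. Igfbp5 (gene ID 16011), a binding protein that attaches to matrix, had 0.02 to 0.06 FPKM in null libraries, against 0.06 to 0.14 in heterozygous ones. Igfbp6 (gene ID 16012), which prefers IGF2, was at 0.04 or listed at 0, and 1 fragment of it was worth about 0.05 FPKM. The neighbours Igfbp2 and Igfbp5, whose promoters are shown above, thus had 69.18 and 76.24 FPKM (Igfbp2) and 0.04 and 0.02 FPKM (Igfbp5) in the same null DMSO libraries.

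Without the filter on low values, limma called Igfbp3 higher in null than in heterozygous cells, by 0.24 ± 0.06 with DMSO (adjusted p = 0.0198) and by 0.25 ± 0.06 with THZ1 (adjusted p = 0.0119). In that fit Igfbp5 was lower in null than in heterozygous cells with DMSO, with a log2 fold change of -0.11 ± 0.03 (adjusted p = 0.0405). Its values were worth only about 4.3 and 2.2 fragments in null cells with DMSO, against 15 and 8.8 in heterozygous cells with DMSO. Of the 17312 genes in that fit, 3497 were called higher and 4541 lower in null cells with DMSO, and 3101 higher and 6659 lower with THZ1. No other comparison of the 4 genes passed.

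The same lines were compared under THZ1. Of the 6 tested genes 4 rose in null cells and 0 fell, where 25.1% of all tested genes were called higher and 58.1% lower. The median log2 fold change was 0.73 over the 6 and -0.28 over all tested genes. Igfbp2 had 104.14 and 98.23 FPKM in null cells with THZ1, against 2.14 and 2.09 in heterozygous cells with THZ1, a 47.8-fold ratio of means and the second largest increase of all tested genes (5.04 ± 0.10, limma adjusted p = 5.11e-13). Igfbp7 had 1013.77 and 942.21 FPKM in null cells with THZ1, against 401.29 and 424.13 in heterozygous cells with THZ1 (1.24 ± 0.06, limma adjusted p = 1.08e-09). Both genes stood clear of the heterozygous libraries.

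Igf2r had 83.26 and 84.35 FPKM in null cells with THZ1, against 38.79 and 37.98 in heterozygous cells with THZ1, 2.18-fold by means (1.11 ± 0.06, limma adjusted p = 1.06e-09). Igf1r had 30.28 and 29.15 FPKM in null cells with THZ1, against 22.93 and 23.18 in heterozygous cells with THZ1 (0.35 ± 0.06, limma adjusted p = 6.51e-05). Unlike with DMSO, the Igf1r groups did not overlap. Insr had 5.39 and 6.15 FPKM in null cells with THZ1, against 5.66 and 5.50 in heterozygous cells with THZ1 (0.04 ± 0.08, limma adjusted p = 0.64). Irs1 had 0.98 and 0.92 FPKM in null cells with THZ1, against 0.75 and 0.80 in heterozygous cells with THZ1 (0.14 ± 0.09, limma adjusted p = 0.178).

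These calls depended on how libraries were scaled. The values as deposited gave 30.1% of all calls as higher under THZ1, against 49.6% with median-of-ratios scaling, which brought the all-gene median to about 0. With that scaling Insr (0.31, adjusted p = 0.00144) and Irs1 (0.29, adjusted p = 0.0113) were also called higher in null cells, as they were with upper-quartile scaling (Insr 0.19, adjusted p = 0.0307; Irs1 0.22, adjusted p = 0.0409), and Igf1r was at 0.65.

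**Figure D2:**
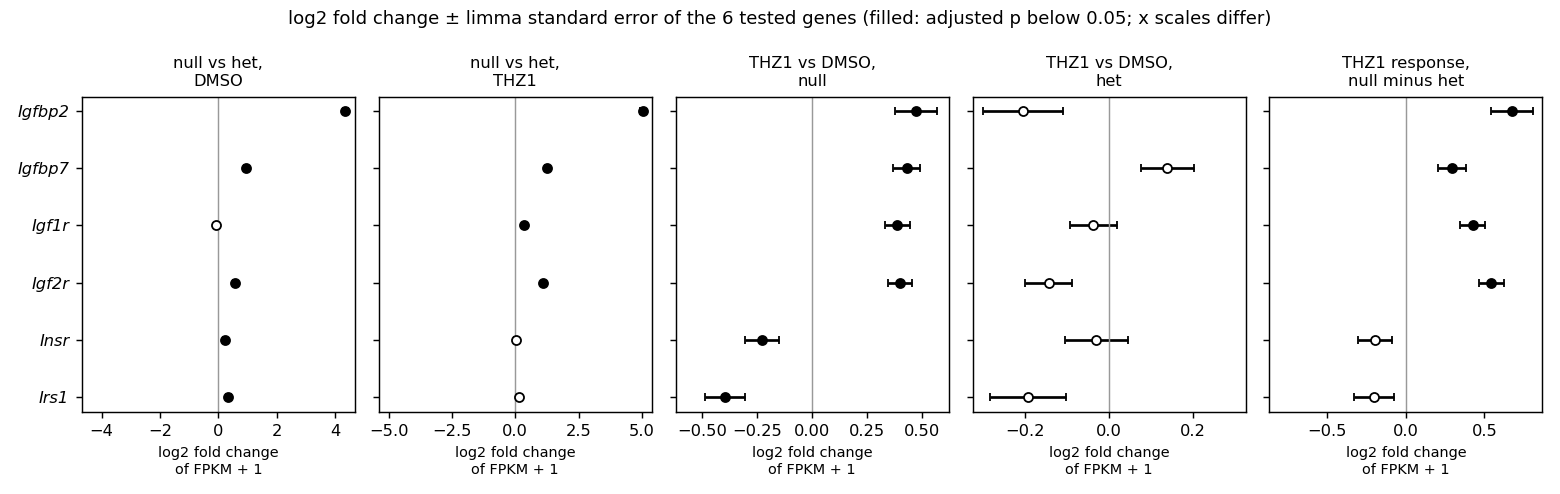
limma log2 fold change of FPKM + 1 (x axis; scales differ between panels) with its standard error for the 6 tested genes (rows) in 5 comparisons; filled points have an adjusted p below 0.05. The 4 genes Igfbp2, Igfbp7, Igf1r and Igf2r are filled and right of 0 under THZ1 in null cells, and no point is filled under THZ1 in heterozygous cells.

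The response to THZ1 was examined first in the null line. Igfbp2, Igfbp7, Igf1r and Igf2r rose with THZ1 by 1.32- to 1.39-fold, and Irs1 and Insr fell, to 0.607 and 0.834 of their DMSO means. Of the 6 tested genes 4 rose and 2 fell, where 24.6% of all tested genes were called higher and 51.1% lower. The median was 0.39 over the 6 and -0.17 over all tested genes. This comparison and the first share the null DMSO libraries, so their values are not independent.

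Igfbp2 had 104.14 and 98.23 FPKM in null cells with THZ1, against 69.18 and 76.24 in null cells with DMSO (0.47 ± 0.10, limma adjusted p = 0.0006). Igfbp7 had 1013.77 and 942.21 FPKM in null cells with THZ1, against 750.66 and 701.14 in null cells with DMSO (0.43 ± 0.06, limma adjusted p = 3.97e-05). In both genes each THZ1 library lay above each DMSO library. The smooth muscle markers summed to 264.4 to 278 FPKM in null cells with THZ1, against 231 and 231.7 in null cells with DMSO, and the mesenchyme markers to 39.94 to 43.04 FPKM in null cells with THZ1, against 33.73 and 33.75 in null cells with DMSO. The smooth muscle sums were carried by Acta2 and Tagln, and the mesenchyme sums by Col1a1 and Postn. Col1a1 averaged 23.86 FPKM in null cells with THZ1 against 16.5 in null cells with DMSO, and Postn 16.74 against 16.02 FPKM in those groups. Cnn1 averaged 2.08 against 2.455 FPKM in the same groups, and Pdgfrb 0.32 against 0.81. The part of these markers in the rise of Igfbp2 and Igfbp7 was not tested.

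Igf2r had 83.26 and 84.35 FPKM in null cells with THZ1, against 61.08 and 65.57 in null cells with DMSO (0.40 ± 0.06, limma adjusted p = 2.65e-05). Igf1r had 30.28 and 29.15 FPKM in null cells with THZ1, against 21.71 and 23.29 in null cells with DMSO (0.39 ± 0.06, limma adjusted p = 3.85e-05). The ratio of Igf2r to Igf1r overlapped between the groups, at 2.75 and 2.89 in null cells with THZ1, against 2.81 and 2.82 in null cells with DMSO.

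Insr had 5.39 and 6.15 FPKM in null cells with THZ1, against 6.82 and 7.02 in null cells with DMSO (-0.23 ± 0.08, limma adjusted p = 0.0148), close to the median of all tested genes. The ratio of Igf1r to Insr was 5.62 and 4.74 in null cells with THZ1, against 3.18 and 3.32 in null cells with DMSO. Irs1 had 0.98 and 0.92 FPKM in null cells with THZ1, against 1.54 and 1.59 in null cells with DMSO (-0.40 ± 0.09, limma adjusted p = 0.00145). The Irs1 groups were far apart, and its fold change was -0.67 (adjusted p = 0.00281) with a pseudocount of 0.1.

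Scaling changed the split of all calls. Of all calls 32.6% were higher in the values as deposited, against 52.5% with median-of-ratios scaling, which moved the all-gene median to 0.03; with it Igfbp2 was at 0.70, Igfbp7 at 0.66, Igf2r at 0.63, Igf1r at 0.61 and Irs1 at -0.28, all still called. The fall of Insr was lost with that scaling (-0.03, adjusted p = 0.704), with upper-quartile scaling (-0.15, adjusted p = 0.0916), without null THZ1 replicate 1 (-0.15, adjusted p = 0.127) and without null DMSO replicate 2 (-0.21, adjusted p = 0.0758).

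In the heterozygous line no gene of the 6 passed limma's test for THZ1 against DMSO after adjustment. With the adjusted p the count was 0, where 12.2% of all tested genes were called higher and 10.3% lower. With the unadjusted p held to the same threshold it was 2, Igf2r and Igfbp7. Those all-gene shares do not apply to the unadjusted count, for which no share of all genes was computed. The median was -0.09 over the 6 and 0.01 over all tested genes. Of all calls 54.3% were higher in the values as deposited, against 33.6% with library total scaling.

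Igfbp2 had 2.14 and 2.09 FPKM in heterozygous cells with THZ1, against 2.16 and 3.08 in heterozygous cells with DMSO (-0.21 ± 0.10, limma adjusted p = 0.14). Igfbp7 had 401.29 and 424.13 FPKM in heterozygous cells with THZ1, against 350.69 and 400.19 in heterozygous cells with DMSO (0.14 ± 0.06, limma adjusted p = 0.13). DMSO replicate 2 for Igfbp2 and DMSO replicate 1 for Igfbp7 lay apart from the other 3 heterozygous libraries. Igf2r had 38.79 and 37.98 FPKM in heterozygous cells with THZ1, against 45.11 and 40.06 in heterozygous cells with DMSO (-0.14 ± 0.06, limma adjusted p = 0.0827).

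Irs1 had 0.75 and 0.80 FPKM in heterozygous cells with THZ1, against 1.04 and 1.02 in heterozygous cells with DMSO (-0.19 ± 0.09, limma adjusted p = 0.14), a ratio of means of 0.752. Igf1r had 22.93 and 23.18 FPKM in heterozygous cells with THZ1, against 24.74 and 22.68 in heterozygous cells with DMSO (-0.04, limma adjusted p = 0.667). Insr had 5.66 and 5.50 FPKM in heterozygous cells with THZ1, against 5.82 and 5.62 in heterozygous cells with DMSO (-0.03, limma adjusted p = 0.805).

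The DMSO libraries weighed on these results. Igfbp2 was called without heterozygous DMSO replicate 1 (-0.39, adjusted p = 0.0102), and Igfbp7 (0.23, adjusted p = 0.026) and Igf2r (-0.23, adjusted p = 0.0175) without heterozygous DMSO replicate 2. Leaving out the other DMSO library brought the values near 0: Igfbp2 was at -0.02 without replicate 2, and Igfbp7 at 0.04 and Igf2r at -0.06 without replicate 1.

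The difference between the THZ1 responses, null minus heterozygous, was tested as an interaction. It was positive for Igfbp2 (0.68 ± 0.14, limma adjusted p = 0.000925), Igf2r (0.54 ± 0.08, limma adjusted p = 8.75e-05), Igf1r (0.42 ± 0.08, limma adjusted p = 0.000599) and Igfbp7 (0.29 ± 0.09, limma adjusted p = 0.0132). Insr (-0.20 ± 0.11, limma adjusted p = 0.127) and Irs1 (-0.20 ± 0.13, limma adjusted p = 0.189) did not pass, so a difference in their fall between the lines was not shown. Of the 6 genes 4 were called higher and 0 lower, where 15.1% of all tested genes were called higher and 45.1% lower, and the median was 0.36 over the 6 and -0.19 over all. Of all calls 25.1% were higher in the values as deposited, against 52.6% with median-of-ratios scaling, which brought the 4 called genes to between 0.53 and 0.91. The Igfbp7 call was lost with no filter on low values (adjusted p = 0.0865), without null THZ1 replicate 1 (0.24, adjusted p = 0.0607), null DMSO replicate 2 (0.24, adjusted p = 0.0601), heterozygous THZ1 replicate 1 (0.25, adjusted p = 0.0531) or heterozygous DMSO replicate 2 (0.20, adjusted p = 0.0564).

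**Figure D3:**
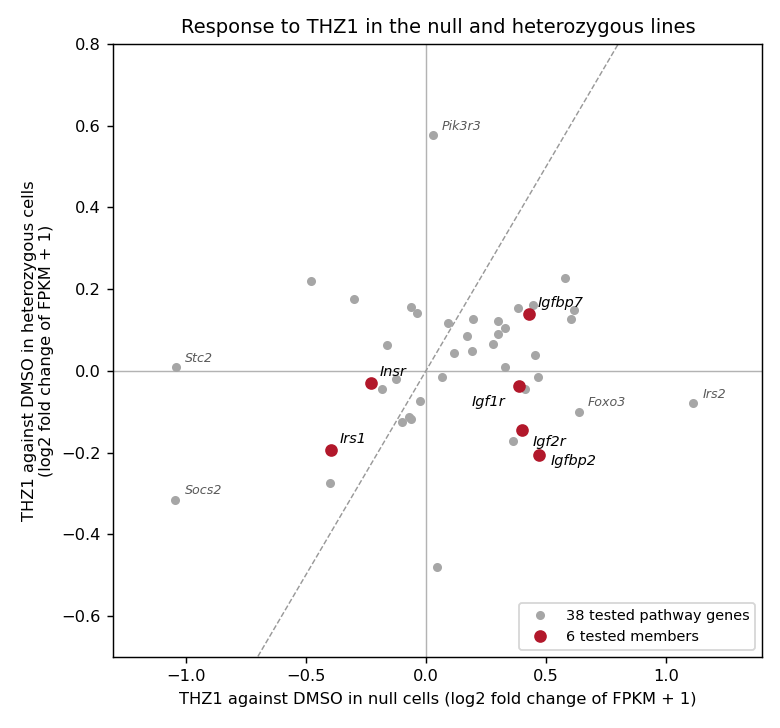
log2 fold change of FPKM + 1 for THZ1 against DMSO in null cells (x axis) and in heterozygous cells (y axis) for the 6 tested genes (red) and 38 tested pathway genes (grey); the dashed line marks equal responses. Igfbp2, Igfbp7, Igf1r and Igf2r lie at 0.39 to 0.47 on the x axis and between -0.21 and 0.14 on the y axis, and Irs2 lies farthest right, Stc2 and Socs2 farthest left.

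The second insulin receptor substrate, Irs2, belongs to the 20 listed adaptors and brakes that act next to the receptors, 15 of which were tested. Irs2 had 12.02 and 12.55 FPKM in null cells with THZ1, 4.90 and 5.39 in null cells with DMSO, 10.24 and 10.66 in heterozygous cells with THZ1, and 11.04 and 11.14 in heterozygous cells with DMSO. Null cells with DMSO thus stood alone as the low group. Irs2 was lower in null than in heterozygous cells with DMSO (-0.98 ± 0.07, limma adjusted p = 3.86e-08), rose with THZ1 in null cells (1.11 ± 0.07, limma adjusted p = 1.31e-08), and responded more in null than in heterozygous cells (1.19 ± 0.09, limma adjusted p = 8.57e-07). Irs1 moved the other way in both of the first comparisons. The Irs2 to Irs1 ratio was 12.3 and 13.6 in null cells with THZ1, against 3.18 and 3.39 in null cells with DMSO, and 13.7 and 13.3 in heterozygous cells with THZ1, against 10.6 and 10.9 in heterozygous cells with DMSO.

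**Figure D4:**
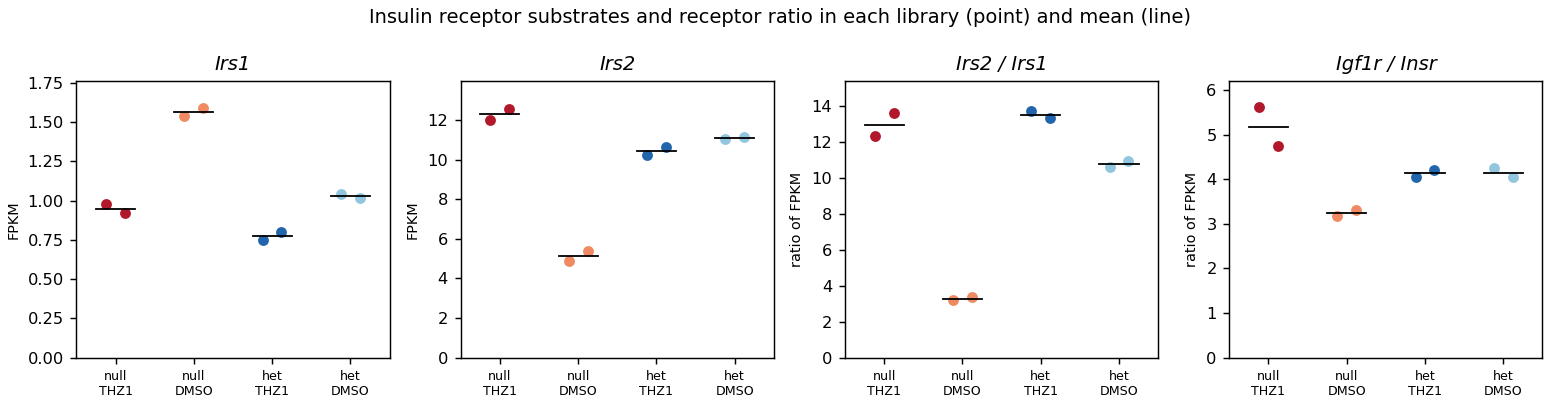
FPKM of Irs1 and Irs2, the ratio of Irs2 to Irs1 and the ratio of Igf1r to Insr in each library (points) with the group mean (line), for null cells with THZ1, null cells with DMSO, heterozygous cells with THZ1 and heterozygous cells with DMSO. Null cells with DMSO have the lowest ratios in both right panels, 3.18 and 3.39 for Irs2 to Irs1 and 3.18 and 3.32 for Igf1r to Insr.

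In the adaptor list, null against heterozygous cells with DMSO gave 5 higher, 6 lower and 4 not called, or 33.3% and 40.0% of the 15, beside 29.0% and 41.0% of all tested genes. Besides Irs2, the smallest adjusted p-values were those of Shc1, an adaptor to the RAS pathway (0.58 ± 0.04, limma adjusted p = 8.69e-08), and Grb14, an inhibitor of the insulin receptor (-1.28 ± 0.10, limma adjusted p = 1.22e-07). THZ1 in null cells gave 8 higher and 3 lower, or 53.3% and 20.0% beside 24.6% and 51.1% of all, with Gab1, a docking adaptor, higher (0.61 ± 0.05, limma adjusted p = 3.7e-07) and Socs2, a suppressor of cytokine and growth hormone signalling, lower (-1.04 ± 0.10, limma adjusted p = 6.65e-07). THZ1 in heterozygous cells gave 1 higher and 2 lower, or 6.7% and 13.3% beside 12.2% and 10.3% of all: Grb2, the adaptor that carries SOS (0.16, limma adjusted p = 0.0264), Cbl, a ubiquitin ligase (-0.48, limma adjusted p = 0.0239), and Socs2 (-0.32, limma adjusted p = 0.0358). Each of those 3 calls was lost in 4 or 5 alternatives, among them no filter on low values and leaving out heterozygous THZ1 replicate 1. The interaction gave 5 higher and 3 lower, or 33.3% and 20.0% beside 15.1% and 45.1% of all, among them Gab1 (0.47) and Socs2 (-0.73). Null against heterozygous cells with THZ1 gave 5 and 5, or 33.3% each beside 25.1% and 58.1% of all, among them Shc1 (0.66), Grb14 (-1.41) and Sh2b2, an adaptor of the insulin receptor (-0.82). With median-of-ratios scaling the interaction gave 9 higher and 2 lower, beside 3475 higher and 3126 lower of all 10731 tested genes. The lines with THZ1 then gave 10 higher and 3 lower, beside 4347 and 4410 of all.

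The ligands and the other parts of the serum complex were near 0. None of the 7 listed genes passed the filter, and Ins1 and Ins2, the insulin genes, were listed at 0 in all libraries. Igf1, named after its values were seen, had 0.01 in both libraries of null cells with THZ1, 0.02 and 0.00 in null cells with DMSO, 0.15 and 0.10 in heterozygous cells with THZ1, and 0.20 and 0.17 FPKM in heterozygous cells with DMSO. The binding proteins and receptors above were thus measured in cells with little RNA for the ligands themselves.

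Of 10 listed proteases that cut IGF binding proteins and their inhibitors, 5 were tested, and 3 rose and 2 fell in null against heterozygous cells with DMSO, with THZ1 in null cells, and between the lines with THZ1. These are 60.0% and 40.0% of the 5, beside all-gene shares of 29.0% and 41.0%, 24.6% and 51.1%, and 25.1% and 58.1% in those comparisons. Htra1, a secreted serine protease, had 92.68 and 89.58 FPKM in null cells with DMSO, against 19.03 and 19.94 in heterozygous cells with DMSO (2.17 ± 0.05, limma adjusted p = 1.97e-12). Ctsd, a lysosomal protease that reaches the lysosome through Igf2r, had 1150.18 and 1076.71 FPKM in null cells with THZ1, 725.76 and 739.23 in null cells with DMSO, 401.66 and 388.87 in heterozygous cells with THZ1 and 361.71 and 362.33 in heterozygous cells with DMSO. Its groups fell in the order null THZ1, null DMSO, heterozygous, as those of Igf2r, Igfbp2, Igfbp7, Htra1 and Adam9 did, so the order is not particular to Ctsd and Igf2r. With THZ1 in heterozygous cells Ctsd (0.13, limma adjusted p = 0.0553) and Igf2r (-0.14, limma adjusted p = 0.0827) differed in sign, and neither was called. Ctsd was higher in null than in heterozygous cells with DMSO by 1.01 ± 0.04 (limma adjusted p = 6.07e-10) and with THZ1 in null cells by 0.60 ± 0.04 (limma adjusted p = 6.9e-08). Adam9, a membrane metalloprotease, rose in the same comparisons, by 0.85 and 0.45.

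Stc2, which inhibits the IGF binding protein protease PAPP-A, went the other way, with 13.04 and 13.59 FPKM in null cells with THZ1, 27.01 and 29.90 in null cells with DMSO, 55.00 and 51.54 in heterozygous cells with THZ1, and 53.21 and 52.62 in heterozygous cells with DMSO. It fell with THZ1 in null cells (-1.04 ± 0.06, limma adjusted p = 5.6e-09), and the interaction was -1.05 ± 0.08 (limma adjusted p = 6.51e-07). Pappa, the gene for PAPP-A, named after its values were seen, was under the filter, at 0.00 to 0.14 FPKM. In heterozygous cells with THZ1 1 of the 5 was called, Adam12, a metalloprotease (-0.27, limma adjusted p = 0.0197), a call lost in 4 alternatives, the same 2 among them. The calls in heterozygous cells were thus 0.0% higher and 20.0% lower of the 5, beside 12.2% and 10.3% of all tested genes. The interaction gave 3 higher and 1 lower, or 60.0% and 20.0% beside 15.1% and 45.1% of all, with Ctsd at 0.48 and Htra1 at 0.46.

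Of 22 listed genes of PI3K, AKT and FOXO, 18 were tested. Null against heterozygous cells with DMSO gave 6 higher and 5 lower, or 33.3% and 27.8% of the 18, beside 29.0% and 41.0% of all tested genes. With median-of-ratios scaling it gave 8 and 3, beside 3717 higher and 3694 lower of all 10731 tested genes. With upper-quartile scaling it also gave 8 and 3, beside 3646 and 3792 of all. Foxo1, a transcription factor held in the cytoplasm by AKT, was higher (0.57 ± 0.06, limma adjusted p = 1.7e-06), and Gsk3b, a kinase inhibited by AKT (-0.61 ± 0.05, limma adjusted p = 2.98e-07), and Pik3r1, the PI3K regulatory subunit (-0.66 ± 0.07, limma adjusted p = 3.77e-06), were lower. THZ1 in null cells gave 9 higher and 1 lower, or 50.0% and 5.6% beside 24.6% and 51.1% of all, with Foxo3 (0.64 ± 0.07, limma adjusted p = 2.73e-06), Foxo1 (0.47 ± 0.06, limma adjusted p = 8.96e-06) and the kinase Akt1 (0.30 ± 0.04, limma adjusted p = 2.74e-05) higher. That split depended on scaling, as did that of all 10731 tested genes. It was 15 higher and 0 lower with median-of-ratios scaling, beside 4363 higher and 3942 lower of all. It was 9 and 0 with upper-quartile scaling, beside 3295 and 4797 of all, and 7 and 4 with library total scaling, beside 2047 and 6129 of all. In heterozygous cells THZ1 gave 1 call (5.6%, beside 12.2% higher and 10.3% lower of all), Pik3r3, another regulatory subunit, which rose (0.58 ± 0.06, limma adjusted p = 0.000146). The interaction gave 7 higher and 3 lower, among them Foxo3 (0.74) and Pik3r3 (-0.55). These are 38.9% and 16.7%, beside 15.1% and 45.1% of all. The counts were 12 and 1 with median-of-ratios scaling, beside 3475 higher and 3126 lower of all tested genes. They were 8 and 1 with upper-quartile scaling, beside 2467 and 3937 of all. With THZ1, null against heterozygous cells gave 9 higher and 3 lower, or 50.0% and 16.7% beside 25.1% and 58.1% of all, among them Foxo1 (1.05), Pik3ca, a catalytic subunit (0.80), and Gsk3b (-0.59).

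The medians of the lists were set beside that of the 6 genes. For THZ1 in null cells they were 0.41 for the proteases, 0.12 for the adaptors and 0.13 for PI3K, AKT and FOXO, beside 0.39 for the 6 genes and -0.17 for all tested genes. For null against heterozygous cells with DMSO they were 0.85, -0.04 and -0.04 in that order, beside 0.45 for the 6 genes and -0.07 for all.

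For each tested gene the genes with the most similar profile were sought among 7596 others, by the root mean square difference of log2(FPKM + 1) over the 8 libraries after centring on each gene's mean. Nearest to Igfbp2, which spanned 5.09 on that scale, were Praf2 (0.196) and Lcn2 (0.368). Nearest to Igfbp7 were Ndfip1 (0.047) and Reep5 (0.051), and nearest to Igf2r were Skil (0.050) and Fat1 (0.053). Nearest to Igf1r were Col4a6 (0.034) and Sbno1 (0.038), to Insr Zfp623 (0.034) and Cyfip1 (0.038), and to Irs1 Sik1 (0.029) and Hspa5 (0.037). Praf2 had 50.14 and 48.33 FPKM in null cells with THZ1, 40.1 and 39.55 in null cells with DMSO and 0.59 to 1.05 in the heterozygous libraries. Lcn2 had 771.47 and 706.1 FPKM in null cells with THZ1, 612.07 and 600.73 in null cells with DMSO and 36.77 to 42.99 in the heterozygous libraries.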

How the data were processed

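Poly(A) RNA of 8 libraries, 2 in each of 4 groups, was measured. Each deposited file holds FPKM values the authors computed for 18631 genes, rounded to 2 decimals. The submitters' processing notes name Bowtie2, DESeq2 and the mouse build mm10; which program counted fragments, on which annotation and with what strand setting, is not given in the sources used here. FPKM is relative to each library's total, so a change in total RNA per cell is not seen. Symbols came from a RefSeq table of GRCm38.p6 (18592 IDs matched, 39 did not).

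The 10731 genes that averaged 1 FPKM or more were tested on log2(FPKM + 1), a scale that understates changes of low genes. limma 3.58.1 (limma-trend) in R 4.3.3 fitted 1 mean per group over all 8 libraries, with two-sided p-values adjusted by Benjamini-Hochberg over all tested genes. Means of FPKM have n = 2. Depth was estimated from the steps of low values.

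The genes described and the 4 pathway lists were chosen with earlier results of these data known. Named pathway genes are the 3 called members with the smallest adjusted p per list and comparison and those at 0 in all libraries, and the 2 nearest profiles per gene; exceptions are marked, and 1 gene that the rule names is not reported here. Alternatives were 3 scalings, a pseudocount of 0.1, no filter, a filter of 5, a replicate block, only the 4 libraries compared, and leaving out each library.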

Additional observations from a re-analysis of the deposited data

Results flagged for a closer look

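The response to THZ1 of 4 genes differed between the null and the heterozygous line by the test of the difference itself (limma, interaction over all tested genes). By that test 15.1% of all tested genes were called higher and 45.1% lower. The log2 difference, null minus heterozygous, was 0.68 for Igfbp2 (adjusted p = 0.000925), 0.54 for Igf2r (adjusted p = 8.75e-05), 0.42 for Igf1r (adjusted p = 0.000599) and 0.29 for Igfbp7 (adjusted p = 0.0132). The Igfbp7 difference was not called in 5 of its 15 alternatives, with adjusted p from 0.000797 to 0.0865 over all 15. In null cells both THZ1 libraries lay above both DMSO libraries for each of the 4 genes. These genes were picked by a test that uses the same null libraries. The share of all genes separated in this way was not computed. In heterozygous cells with THZ1 the log2 fold change was -0.21 for Igfbp2, -0.14 for Igf2r, -0.04 for Igf1r and 0.14 for Igfbp7, and none was called.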

How the results depend on the processing

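For the counts of called genes among the 6 tested, 3 of 79 alternative values moved by over 1.5 times, all for THZ1 in heterozygous cells, where the count was 0. It was 1 with library total scaling (Igf2r, -0.19, limma adjusted p = 0.0401), beside 753 higher and 1491 lower of all 10731 tested genes. The other moves came with a library left out. Of 469 alternative fold changes, 446 kept direction and call, 9 gained a call, 11 lost one and 3 changed sign. The sign changes were the Insr interaction, 0.01 with median-of-ratios scaling; Igf1r under THZ1 in heterozygous cells, which ranged from -0.10 to 0.02 over the libraries left out; and Insr between the lines with THZ1, -0.04 to 0.12. The cause was not tested. With a library left out, the lone sample of its group was assumed to vary like the other groups. The interaction has no fit on 4 libraries alone, and Irs1 is under the filter of 5. The Insr interaction was called without null THZ1 replicate 2 (-0.28, adjusted p = 0.0402). Of the list counts, 49 of 474 moved by over 1.5 times. Same-numbered replicates shared little deviation (correlations of -0.09 to 0.14, the highest between heterozygous cells with THZ1 and with DMSO). Whether the numbers pair the samples is not stated, and these correlations cannot decide it, as a small shared shift could go unseen. A replicate block left the count of called genes among the 6 at 5 for the lines with DMSO, beside 3100 higher and 4402 lower of all 10731 tested genes. For THZ1 in null cells the count stayed at 6, beside 2636 higher and 5476 lower of all. For THZ1 in heterozygous cells the block gave 1319 higher and 1068 lower of all. Values near 1 fragment, as for Igfbp6, could not show a difference at this depth.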
